A study of Mus musculus with 12 samples.

Results

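The synaptotagmins are membrane proteins with paired C2 domains that place and fuse vesicles, and 10 genes of the family were followed through every library: Syt1, Syt2, Syt3, Syt4, Syt5, Syt6, Syt7, Syt11, Syt13 and Syt17. They are 10 of the 20504 genes in the table of reads on coding sequence (CDS). They were taken from a list of names, and earlier results of these data were known when the list was chosen. All 10 passed the limit of a mean of 37 counts per library in each test on CDS counts. The 12 libraries came from the brains of 6 mice that were 3 months old. All mice carried Camk2a-cre and the RiboTag allele, in which Cre switches the ribosomal protein Rpl22 to a form with a hemagglutinin (HA) tag. The Camk2a promoter drives Cre in principal excitatory neurons of the forebrain, so tagged ribosomes mark these neurons, while the footprints and the total RNA came from all cells of the tissue.

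Mice A and B were given vehicle by oral gavage (the labels call them untreated), and mice C and D received 100 mg/kg AZD-8055, an ATP-competitive inhibitor of the kinase mTOR, 1 h before the right frontal lobe was taken. Each of these 4 mice gave a poly(A) RNA-Seq library and a ribosome profiling library, in which short RNA fragments protected by ribosomes (footprints) are sequenced. Mice E and F, labelled untreated, each gave RNA-Seq of the whole homogenate (input) and of RNA pulled down with the HA tag (IP). With 2 mice per group, the tests borrowed estimates of spread across genes, so an adjusted p-value does not measure the spread between animals alone. It does not reach beyond these animals. The main tests of footprints against RNA and of IP against input had no term for the mouse.

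The RNA-Seq, input and IP libraries held 9309496 to 15585831 counts on CDS, and the footprint libraries of mice A to D held 9259938, 4551357, 3503873 and 4759336. Libraries of the same group differed by more than counting noise in all 6 groups, with chi-square values of 2.61 to 9.53 per degree of freedom over genes. The marker genes of excitatory neurons summed to 4785 and 5113 CPM (counts per 1000000 CDS counts of the library) in the inputs, against 6735 and 7273 CPM for the IP, with 4 of 6 genes called higher and 2 lower, Camk2a among the latter at a log2 change of −0.66. On exon counts 5 of these 6 were called higher and 0 lower. Markers of inhibitory neurons fell in the IP in 6 of 6 genes, from sums of 974 and 997 CPM to between 147 and 214 CPM, and those of astrocytes in 5 of 5, from 776 to 879 CPM down to 70.6 to 79.9 CPM. Oligodendrocyte markers fell in 5 of 5 genes (1959 to 2088 CPM against 146 to 154 CPM), endothelial markers in 5 of 5 (224 to 262 CPM against 7.30 to 13.9 CPM) and microglial markers in 4 of 5 (308 to 315 CPM against 26.2 to 26.6 CPM). No marker of these lists was at 0 in any library.

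As background, Syt1 and Syt2 are the calcium sensors of fast, synchronous transmitter release: calcium bound to their C2 domains drives the SNARE complex to fuse docked vesicles. Syt1 is the main sensor of forebrain neurons, and Syt2 serves fast synapses, many of them inhibitory or in the hindbrain. Syt7 has a higher calcium affinity and acts in asynchronous release and facilitation, and Syt3, Syt5 and Syt6 also bind calcium. Syt4 and Syt11 carry a substitution in a calcium site of a C2 domain, Syt13 does not bind calcium, and Syt17, also called B/K protein, lacks the transmembrane segment of the others.

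Many mRNAs whose translation depends on mTOR begin with a C followed by a run of pyrimidines, the TOP motif. The 30 bases around annotated starts are shown for the fast sensors and for Syt11, the members of RefSeq's table whose footprints exceeded RNA by more than 2-fold, next to Eef1a1, an elongation factor whose mRNA is a well known TOP mRNA. The sequences come from RefSeq on GRCm38.p6, 5′ to 3′ on the gene's strand, and capitals mark the first 5 bases from the annotated start.
Syt1, chr10:109010961-109010990, minus strand: tgatgggcggccgccTCCTCactggaggga
Syt1, chr10:109009097-109009126, minus strand: ggaggcggtagcgaaGGGAAatatccagtt
Syt2, chr1:134646597-134646626, plus strand: cgctcgcgctcgcccATCGAtcagcccctc
Syt2, chr1:134709285-134709314, plus strand: cgcgcgagcgagggaGCGGGaggagagccg
Syt11, chr3:88772585-88772614, minus strand: ctttcgggcagaggcGGAGTcttctgccga
Eef1a1, chr9:78481710-78481739, minus strand: gctggctccgccctcTTCCCgagggtgggg

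Of the 10 members, 5 had a start in the table, with 9 windows in all. None of the 9 began with C and 4 pyrimidines (C or T, read on the gene's strand), a start found in 823 of all 32851 windows, or 2.51%. The Eef1a1 window lacked it as well at its annotated base, so a missing match says only that these letters are not at this position. In the same annotation Syt1 spans chr10:108497650-109010980 and Syt2 spans chr1:134646534-134753149, and the deposited counts carry symbols without positions.

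Levels were compared within each gene and not between genes, since no CDS lengths were at hand. Syt1 gave 596 and 540 CPM on CDS in the RNA of vehicle mice A and B and 638 and 616 CPM in AZD-8055 mice C and D. Its footprints reached 1850, 1748, 1950 and 1706 CPM in mice A to D. In mice E and F it stood at 767 and 838 CPM in the input and at 272 and 227 CPM in the IP. The footprint values of Syt1 lay above all its RNA values, and its IP values lay below all the others.

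Syt2, the other fast sensor, was at 19.0 and 17.8 CPM in vehicle RNA, at 17.1 and 23.4 CPM in AZD-8055 RNA, and at 59.0, 64.8, 60.5 and 78.6 CPM in the footprints of mice A to D. Its input libraries held 13.8 and 20.7 CPM and its IP libraries 3.01 and 5.21 CPM, which rest on only 28 and 52 counts. As for Syt1, its footprints were highest and its IP lowest, with the IP from other mice than the footprints. How often genes show such gaps was not counted. In the edgeR tests below, 73.5% of genes were called between vehicle footprints and RNA, and 75.5% between IP and input.

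Of the other calcium-binding members, Syt5 measured 254 and 253 CPM in vehicle RNA, 255 and 247 CPM in AZD-8055 RNA, and 228, 195, 244 and 214 CPM in the footprints, so these groups lay close together, while its IP values of 500 and 504 CPM stood far above inputs of 203 and 220 CPM. Syt3 was at 80.6, 87.5, 86.3 and 94.7 CPM in the RNA of mice A to D and at 44.4, 45.3, 45.1 and 60.3 CPM in their footprints. Syt3 inputs of 77.7 and 76.2 CPM were below its IP values of 116 and 115 CPM, so Syt3 had the reverse order of Syt1 and Syt2, with the IP highest and footprints lowest.

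Syt7, the sensor of slow release, gave 170, 168, 166 and 169 CPM in the RNA of mice A to D, a very narrow range, and 81.8, 87.0, 89.3 and 89.7 CPM in their footprints. Its inputs held 227 and 203 CPM and its IP libraries 91.1 and 60.6 CPM. Syt6 was at 21.4, 25.0, 35.4 and 25.5 CPM in the RNA and at 31.1, 34.3, 35.4 and 30.3 CPM in the footprints of mice A to D, while the inputs of mice E and F held 32.9 and 27.5 CPM and their IP libraries 10.4 and 5.71 CPM. Mouse C stood apart for Syt6 RNA, and the other 3 mice lay together.

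Among the members without the usual calcium sites, Syt4 went from 149 and 132 CPM in vehicle RNA to 448 and 427 CPM in the same mice's footprints. Syt11 went from 380 and 370 CPM to 718 and 727 CPM. In the edgeR test of this contrast (below), 73.5% of all genes were called. Footprints and RNA did not overlap for either gene, a gap whose share over all genes was not counted. Syt13 showed no such gap, with 161 and 145 CPM in vehicle RNA and 147 and 158 CPM in footprints. Syt17 went the other way, with 48.6 and 45.7 CPM in vehicle RNA and 26.1 and 30.8 CPM in footprints. In the inputs and the IP, in the order E and F, Syt4 held 142 and 156 against 80.0 and 68.5 CPM, Syt11 448 and 457 against 287 and 321 CPM, Syt13 173 and 160 against 206 and 180 CPM, and Syt17 64.2 and 56.7 against 87.1 and 62.0 CPM.

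**Figure D1:**
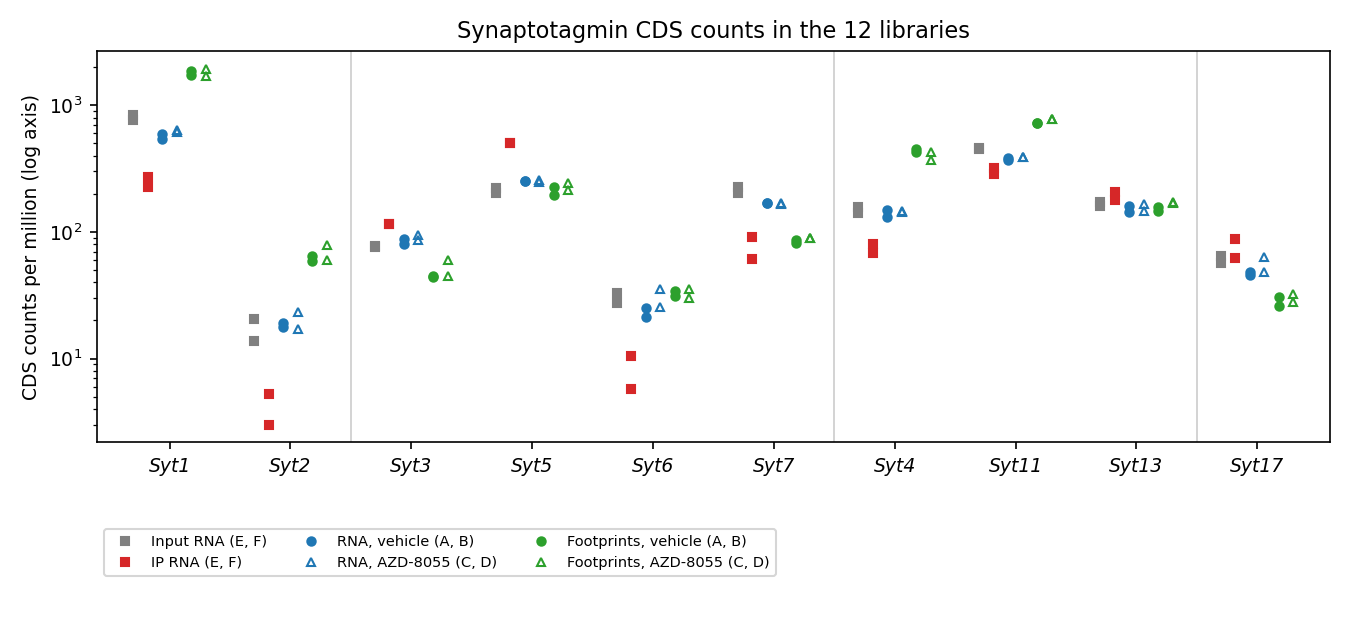
CPM on the CDS of the 10 synaptotagmins on a log axis, one symbol per library, with mouse letters in the key and vertical lines between the fast sensors, the other calcium-binding members, the members without the usual calcium sites and Syt17. Footprints of Syt1 reach 1706 to 1950 CPM against 540 to 638 CPM in the RNA of the same mice, while Syt5 is highest in the IP at 500 and 504 CPM.

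On CDS counts, the makeup of the family's reads differed with the assay. Syt1 took 31.0% ± 1.02 (SD, n = 2) of the 10 genes' summed counts in vehicle RNA and 50.3% ± 0.85 of their summed footprints. Syt1 and Syt2 together took 32.0% ± 1.03 and 52.0% ± 0.69. In the IP, Syt1 took 15.6% ± 1.28 against 36.8% ± 1.51 of the input, and Syt5 took 31.4% ± 1.62 against 9.69% ± 0.36. These shares depend on CDS length as well as on the number of molecules. They also depend on where in the gene reads were counted, and shares over all exons were not computed. In the edgeR fits below, the log2 change of Syt1 from input to IP was −1.25 on the CDS and 0.0024 over all exons. That of Syt5 was 1.68 and 1.31. The log2 difference of Syt1 footprints from RNA was 1.80 with RNA on the CDS and 0.47 with RNA over all exons.

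The first comparison asked how densely each mRNA was occupied by ribosomes in vehicle brain. Translation efficiency (TE) is the ratio of footprints to RNA on the CDS, so CDS length cancels and TE can be set side by side between genes. Syt1, Syt2 and Syt4 had the highest TE of the family, Syt11 and Syt6 were also above 0, Syt13 and Syt5 were near the median gene, and Syt17, Syt3 and Syt7 were below it. In log2 units the TE of Syt1 was 1.76 in both vehicle mice, which put its mean at percentile 97.2 of 10882 genes, and that of Syt2 was 1.77 and 1.93, with its mean at percentile 97.7. Syt4, which is not a fast sensor, had TEs of 1.72 and 1.76 and a mean at percentile 97.0. The median gene had a log2 TE of 0.016, and the central 90% of genes lay between −1.76 and 1.46.

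In the edgeR quasi-likelihood test of footprints against RNA, with Benjamini-Hochberg adjustment over 11891 genes, 5 members were called higher and 3 lower. This is a comparison in which 73.5% of all genes were called, 36.6% higher and 36.9% lower, so the count itself is close to the background. The 4 members that were called with more than a 2-fold excess of footprints, Syt1, Syt2, Syt4 and Syt11, stand against 13.3% of all genes in that class. The log2 difference was 1.80 for Syt1 (SE 0.078, adjusted p = 1.67e-10), 1.89 for Syt2 (SE 0.11, adjusted p = 2.98e-09) and 1.78 for Syt4 (SE 0.088, adjusted p = 5.7e-10). Syt11 followed at 1.09 (SE 0.075) and Syt6 at 0.63 (SE 0.13, adjusted p = 0.000541).

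On the lower side, Syt7 was at −0.86 (SE 0.075, adjusted p = 1.61e-07), Syt3 at −0.76 (SE 0.094, adjusted p = 5.32e-06) and Syt17 at −0.61 (SE 0.11, adjusted p = 0.000269). Syt13 at 0.13 (95% interval −0.035 to 0.30, adjusted p = 0.137) and Syt5 at −0.11 (95% interval −0.30 to 0.078, adjusted p = 0.269) did not pass. The other calcium-binding members thus lay on both sides of the median gene, with a median of −0.44, against 1.09 for the 3 members without the usual calcium sites and −0.0051 for all genes tested. With RNA counted over all exons (below), these medians were −0.43, −0.023 and −0.017. The median of the members without the usual calcium sites was then close to that of all genes. Lengths do not cancel in that ratio, so its medians are not a like comparison between genes. The fast sensors were not set apart from the rest of the family, since the log2 TE of Syt4 was only 0.042 and 0.0015 below that of Syt1 in mice A and B.

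The order of TE was stable at the top of the family and not at its foot. Syt2, Syt1, Syt4 and Syt11 held ranks 1 to 4 in that order in each of the 4 mice, vehicle and AZD-8055 alike. The steps between Syt2 and Syt1 (0.0044 to 0.28 over the 4 mice) and between Syt1 and Syt4 (0.0015 to 0.12) reached down to almost nothing, so these neighbours did not differ beyond the spread between mice. The step from Syt4 to Syt11 was 0.35 to 0.72, and that from Syt11 to Syt6 was 0.38 to 0.98, so each was present in every mouse. Syt6 ranked above Syt13 in 3 of 4 mice. Syt3, Syt7 and Syt17 exchanged places between mice, and their order could not be told.

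**Figure D2:**
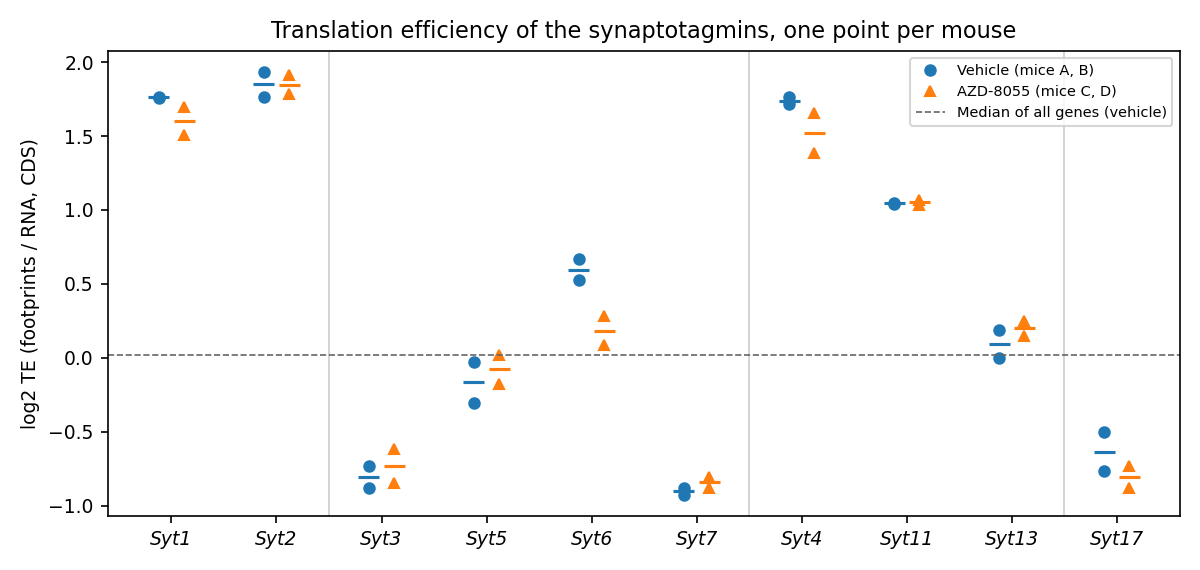
Log2 TE (footprints over RNA on the CDS, after size factors) of each synaptotagmin, one point per mouse, with short lines at the means of 2 mice and a dashed line at the median gene in vehicle mice. Syt1, Syt2 and Syt4 sit together between 1.38 and 1.93 in all 4 mice, and Syt3, Syt7 and Syt17 sit below −0.50.

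The RNA side of TE depended on where in the gene RNA reads were counted. In an alternative chosen after seeing the data, RNA was counted over all exons and footprints on the CDS. Lengths do not cancel in that ratio, so its values are not set side by side between genes. Syt2 came to a log2 difference of 1.38 (SE 0.095), Syt4 to 0.85 (SE 0.083) and Syt1 to 0.47 (SE 0.076). All 3 were still called higher by edgeR. Syt11 came to −0.023 (SE 0.071, adjusted p = 0.783). Syt6 (−0.56) and Syt13 (−0.70) were then called lower, Syt5 (0.42) was called higher, and Syt7 came to −1.85. In that fit 8 of the 10 members were called, where 74.4% of all genes were, 36.1% higher and 38.3% lower.

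The share of a gene's exon counts that fell on its CDS was measured as well, since exon counts add the untranslated regions. In vehicle RNA this share was 22.1% and 22.9% for Syt1, with 95% Wilson intervals of 21.6 to 22.6% and 22.3 to 23.4%. It was 25.6 to 26.9% for Syt11, 23.3 to 26.4% for Syt6, 27.2 to 30.0% for Syt7 and 28.7 to 30.7% for Syt4, against a median gene at 62.4% and 62.3%. Syt2 lay at 40.0% and 39.7%, Syt3 and Syt5 between 76.8% and 82.2%, and Syt17 at 97.0% and 97.8%. Most reads of Syt1, Syt2, Syt4, Syt6, Syt7, Syt11 and Syt13 thus lay outside the CDS, and those of Syt3, Syt5 and Syt17 mostly on it. The intervals cover counting error only.

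The second comparison asked whether 1 h of mTOR inhibition changed the translation or the RNA of the family. In edgeR's test of the TE change (the interaction of assay and treatment), 0 of 10 members were called, where 0.865% of 11797 genes were. None of the 10 had an unadjusted p under 0.05, and DESeq2 also called 0. With the mouse as a replicate block, since footprints and RNA came from the same animals, 0 were called as well, and Syt6 and Syt4 had an unadjusted p under 0.05. The log2 TE change ranged from −0.42 for Syt6 to 0.11 for Syt13 and Syt3, with a median of 0.011 against −0.0088 for all genes. For comparison, Eef1a1 changed by −1.59 (SE 0.083, adjusted p = 6.90e-08), so a fall in the TE of a TOP mRNA was measured in the same libraries.

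Neither fast sensor passed the TE test. Syt1 went from log2 TEs of 1.76 and 1.76 in vehicle mice to 1.698 and 1.504 in AZD-8055 mice, which do not overlap, and its fitted change was −0.15 (95% interval −0.38 to 0.074, adjusted p = 0.843). Syt2 went from 1.77 and 1.93 to 1.91 and 1.78, which overlap, and its change was 0.011 (95% interval −0.44 to 0.46, adjusted p = 0.997). Fewer reads lay on Syt2, and its interval was the wider.

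Syt6 had the largest fitted TE change, from 0.67 and 0.53 to 0.084 and 0.28, a difference of −0.42 with a 95% interval of −0.91 to 0.073 (unadjusted p = 0.0894 and adjusted p = 0.766 in edgeR). Syt4 went from 1.72 and 1.76 to 1.66 and 1.38, a difference of −0.21 with an interval of −0.48 to 0.047 (adjusted p = 0.781). The vehicle and AZD-8055 values of Syt6 and of Syt4 did not overlap, but neither gene passed the test. With 2 mice per group such a gap, also seen for Syt1, often arises without any effect. Its share over all genes was not counted. With the block the interval of Syt6 was −0.78 to −0.042 (unadjusted p = 0.0308, adjusted p = 0.482 in edgeR) and that of Syt4 was −0.42 to −0.018 (unadjusted p = 0.0337, adjusted p = 0.507 in edgeR), so both then lay below 0. The change of Syt6 was −0.27 without mouse C, and that of Syt4 was −0.098 without mouse D and −0.33 without mouse C. Without the block all 10 intervals stayed inside a 2-fold change, and the lowest bound was that of Syt6.

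RNA levels gave the same count. In edgeR's RNA test 0 of 10 members were called, against 0.148% of 12182 genes, and DESeq2 also called 0, giving no adjusted p for Syt2 and Syt6. An unadjusted p under 0.05 was found for 2 members: Syt6 at a log2 change of 0.40 (95% interval 0.077 to 0.72, adjusted p = 0.486) and Syt1 at 0.15 (95% interval 0.0044 to 0.29, adjusted p = 0.587). Leaving out mouse C, at 35.4 CPM of Syt6 RNA against 21.4 to 25.4 CPM in the other mice, moved the change of Syt6 to 0.14, and leaving out mouse D moved it to 0.62. For Syt1, omitting mouse B lowered the change to 0.073 and omitting mouse A raised it to 0.23. The other 8 lay between −0.0069 for Syt5 and 0.25 for Syt17. On exon counts, edgeR again called 0 of 10, 1 with an unadjusted p under 0.05, where 0.137% of genes were called.

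Footprints alone gave 0 called members in edgeR and in DESeq2, none with an unadjusted p under 0.05, where 1.01% of 10695 genes were called. The changes ran from −0.15 for Syt4 to 0.24 for Syt3, and the widest bounds were −0.33 and 0.55. Syt3 was called when mouse C, the shallowest footprint library, was left out (0.41, SE 0.14, adjusted p = 0.0451). Its footprints stood at 45.1 CPM in mouse C and 60.3 CPM in mouse D, next to 44.4 and 45.3 CPM in the vehicle mice, so that call rests on mouse D alone.

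**Figure D3:**
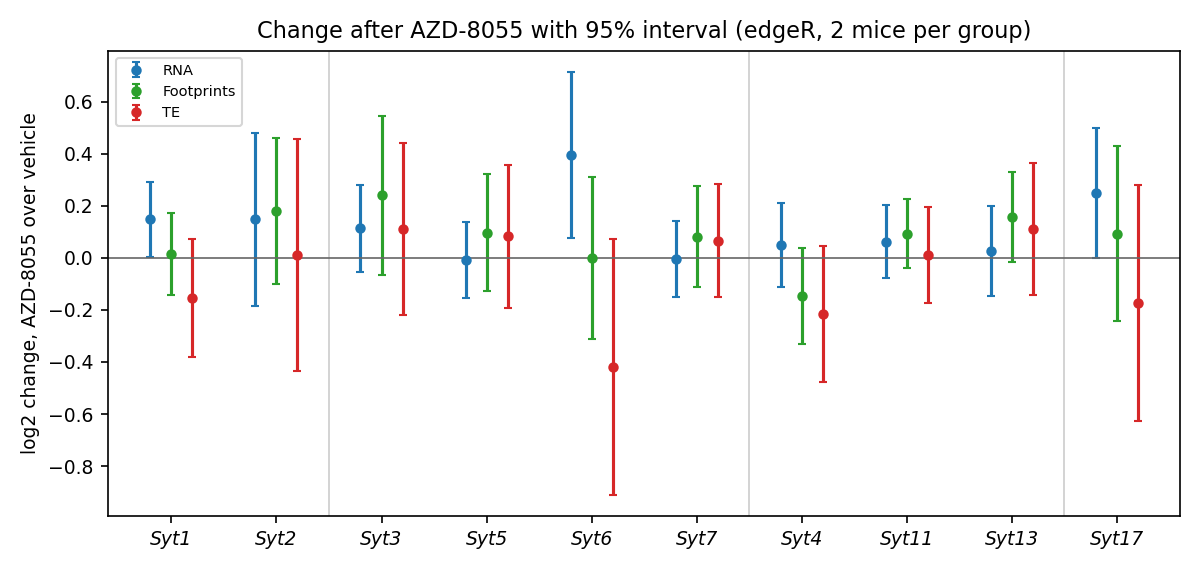
Log2 change of each synaptotagmin in AZD-8055 mice over vehicle mice in RNA, footprints and TE, with 95% intervals from edgeR (2 mice per group). No interval leaves a 2-fold change in either direction, and the RNA intervals of Syt6 and Syt1 are the ones that lie above 0.

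The third comparison asked which synaptotagmin mRNAs were held by the tagged ribosomes of Camk2a-expressing neurons. On CDS counts both fast sensors were lower in the IP than in the input, with log2 ratios per mouse of −0.94 and −1.30 for Syt1 and −1.65 and −1.40 for Syt2 in mice E and F. Syt5 was higher by 1.86 and 1.78, Syt3 by 1.13 and 1.18, Syt17 by 0.99 and 0.72 and Syt13 by 0.80 and 0.76. Syt6, Syt7 and Syt4 were lower, at −1.11 and −1.68, −0.76 and −1.16, and −0.27 and −0.61. In such bulk samples, fewer cells that express a gene and less RNA per cell cannot be told apart. These CDS ratios also depended on where in the gene reads were counted. Over all exons the edgeR fit gave 0.0024 for Syt1, −0.12 for Syt7 and 0.47 for Syt4, while Syt2 (−1.62) and Syt6 (−0.42) stayed below 0. What produced these values was not tested.

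With edgeR over 12211 genes, 4 members were called higher (Syt3, Syt5, Syt13 and Syt17) and 5 lower (Syt1, Syt2, Syt4, Syt6 and Syt7), where 75.5% of all genes were called, 36.5% higher and 39.0% lower. The members' count is again near the background. Syt5 changed by 1.68 (SE 0.11, adjusted p = 3.40e-06, percentile 94.3 of all genes), Syt2 by −1.63 (SE 0.31, adjusted p = 0.0013) and Syt1 by −1.25 (SE 0.12, adjusted p = 2.21e-05). Syt11 at −0.14 (95% interval −0.39 to 0.11, adjusted p = 0.276) did not pass. Scaling to library totals moved the median gene from −0.067 to −0.50, the share of calls that were higher from 48.3% to 32.7%, and took away the calls of Syt13 (0.21) and Syt17 (0.30) while Syt11 was then called lower (−0.57), so the directions given here are relative to the median gene.

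Counting the same IP and input libraries over all exons changed the picture for most of the family. Syt1 went from −1.25 on the CDS to 0.0024 on exons (95% interval −0.24 to 0.24, adjusted p = 0.984). Syt4 turned from lower to higher (0.47, adjusted p = 0.00523), Syt11 was called higher (0.55, adjusted p = 0.00218), and Syt7 (−0.12, adjusted p = 0.310) was no longer called. Syt2 stayed lower at −1.62 (SE 0.15), and Syt5 (1.31), Syt13 (1.06) and Syt3 (0.74) stayed higher. In total 5 members were higher and 1 lower on exons, where 69.4% of 13254 genes were called, 33.7% higher and 35.7% lower.

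Syt6 (−0.42, adjusted p = 0.0663) and Syt17 (0.27, adjusted p = 0.270) did not pass on exons, but with the mouse as a replicate block, a choice added after seeing the data, Syt6 was called lower (−0.44, adjusted p = 2.35e-05) and Syt17 higher (0.25, adjusted p = 0.0117), where 80.9% of genes were called. On CDS counts the block changed no call of a member, while 81.9% of all genes were called in the IP and 77.0% in vehicle TE. Without the block, Syt2 was the one member called lower on the CDS, on exons and outside the CDS. The summed markers of inhibitory neurons fell in the same libraries (given above). So did those of astrocytes, oligodendrocytes, endothelial cells and microglia, and the fall was not particular to inhibitory markers. The part of any of these cells in the result for Syt2 was not tested.

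Exon counts outside the CDS, the exon count minus the CDS count, gave the remainder. There Syt1 was at −0.18 (SE 0.11, adjusted p = 0.182) and Syt2 at −1.84 (SE 0.18, adjusted p = 8.20e-05). Syt5 (1.09), Syt13 (0.86), Syt3 (0.78), Syt4 (0.38) and Syt11 (0.33) were called higher and Syt6 (−0.55) lower, Syt7 (−0.24) did not pass, and Syt17 had too few counts outside its CDS to be tested, with 22 to 35 in each library. In this fit 59.6% of 9947 genes were called, 29.1% higher and 30.5% lower. Syt2 was thus lower and Syt3, Syt5 and Syt13 were higher in all 3 ways of counting.

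**Figure D4:**
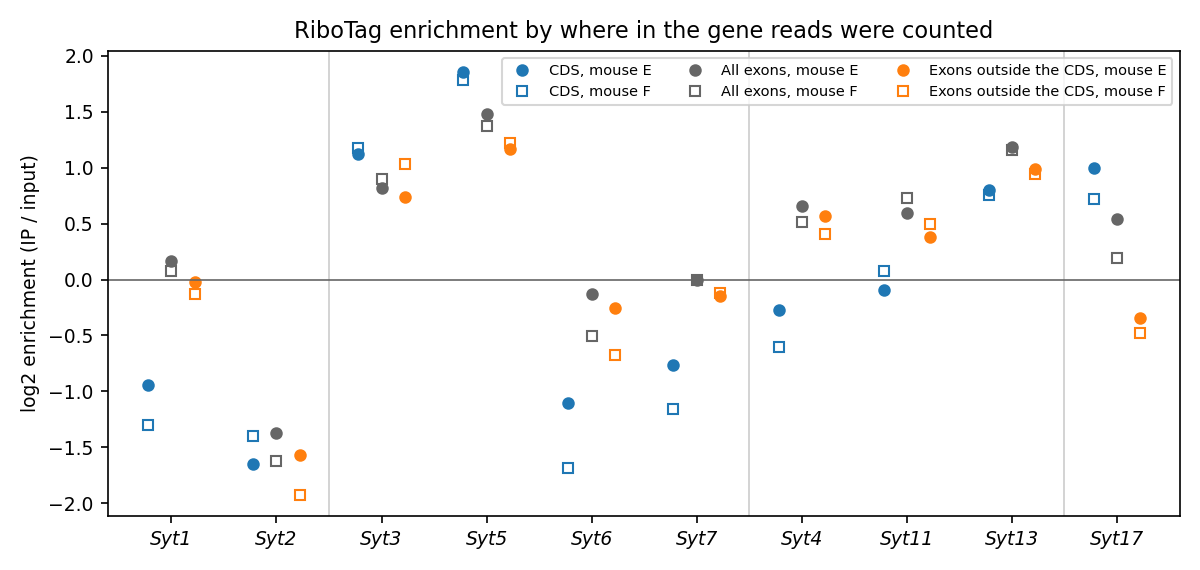
Log2 ratio of IP to input for each synaptotagmin in mouse E (filled circles) and mouse F (open squares), counted on the CDS, on all exons and on exons outside the CDS. Syt2 lies below −1.37 in every counting, while Syt1 moves from −0.94 and −1.30 on the CDS to 0.16 and 0.079 on exons.

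Whether the IP change differed between the parts of a gene was tested in 1 edgeR model over the CDS and the outside counts of each library, added after seeing the data, in which 46.1% of 11991 genes were called, 23.1% in each direction. For 5 members the change outside the CDS was the higher: Syt1 by 1.02 (SE 0.12, adjusted p = 5.89e-07), Syt4 by 0.90 (SE 0.12), Syt6 by 0.88 (SE 0.17), Syt7 by 0.80 (SE 0.13) and Syt11 by 0.42 (SE 0.11, adjusted p = 0.00278). For Syt5 it was the lower by 0.64 on the log2 scale (adjusted p = 0.000178), and so it was for Syt17, which has few outside counts. Syt2 (−0.27, SE 0.31), Syt3 and Syt13 did not pass. These differences are relative to the median gene, and the median gene itself lost CDS share in the IP.

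Seen as shares, 27.2% and 24.9% of the exon counts of Syt1 lay on its CDS in inputs E and F, and 9.35% and 6.69% in the IP, with Wilson intervals of 9.01 to 9.70% and 6.43 to 6.96%. The median gene went from 65.2% and 63.8% to 50.9% and 47.2%. Syt4 went from 35.1% and 32.7% to 13.6% and 10.5%, Syt7 from 33.5% and 32.0% to 14.7% and 10.1%, and Syt6 from 32.9% and 28.7% to 12.4% and 8.88%. The input and IP shares of these genes did not overlap, and neither did those of the median gene. The share of all genes with such a gap was not counted. For Syt17 the share was 96.0 to 96.9% in all 4 libraries, and Syt5 held 79.2% and 79.4% before and 76.2% and 73.5% after the pull-down. Syt2 had 38.5% and 47.0% against 23.5% and 38.2%, with IP intervals 15.1 and 16.1 percentage points wide. A loss of CDS share was thus seen across the libraries as a whole, and what produced it was not tested.

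**Figure D5:**
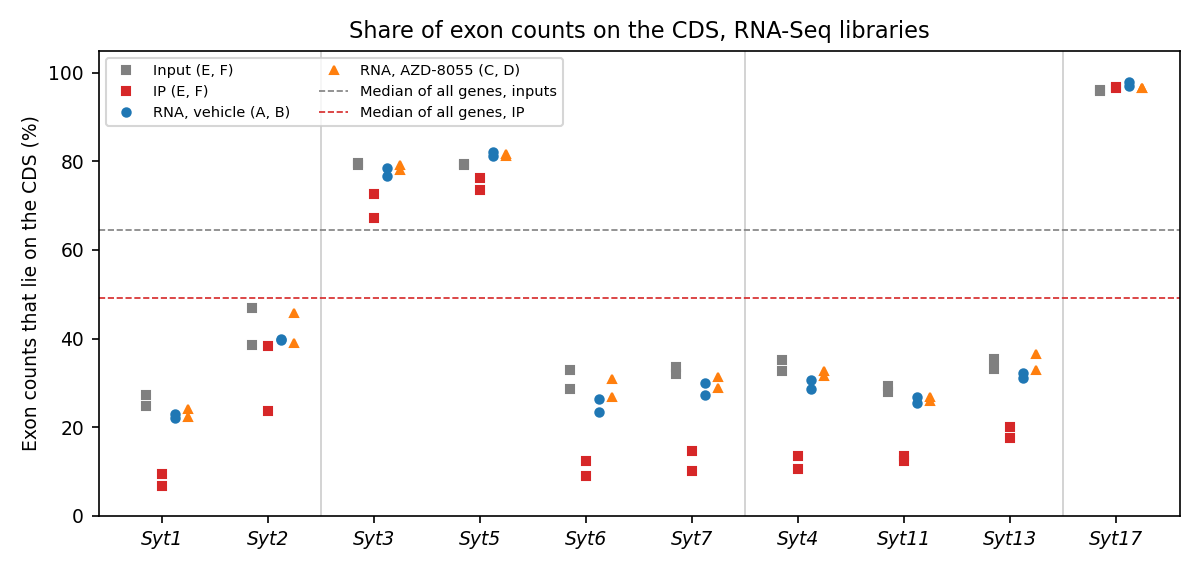
Percent of each gene's exon counts that lie on the CDS in the 8 RNA-Seq libraries, with dashed lines at the mean of the median genes of the 2 inputs and of the 2 IP libraries. Syt1 falls from 24.9 to 27.2% in the inputs to 6.69 to 9.35% in the IP, while Syt17 stays at 96.0 to 96.9%.

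The CDS counts of the members were also compared by their correlation over the 12 libraries. Pearson's r of log2 CPM with Syt1 was 0.982 for Syt4, 0.967 for Syt11, 0.959 for Syt2 and 0.816 for Syt6. It was −0.960 for Syt3, −0.864 for Syt17 and −0.807 for Syt5. Syt13 (−0.423) and Syt7 (−0.085) lay between. Among 12014 genes, those most like Syt1 were Rab6b (0.999), Camk1d (0.998), Ept1 (0.998), Nt5dc3 (0.998) and Gsk3b (0.997), and those most like Syt2 were Dner (0.993), D3Ertd751e (0.993), Fstl5 (0.992), Pcdhga12 (0.990), whose exons are partly shared with its gene cluster, and Rragb (0.989). The points share mice, assays and library depth, so these values describe the 12 libraries and carry no test.

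The rest of the family and its partners were counted from lists of names. Of 7 other synaptotagmins, 5 passed the count limit in vehicle brain, and footprints exceeded RNA in 3 of them and were lower in 1, with a median of 0.50. Of 7 C2-domain relatives tested (such as Doc2a, Doc2b and rabphilin, Rph3a), 2 were higher and 3 lower. Of 31 partners in release, among them the SNAREs, complexins, Munc18 and Munc13 proteins and synapsins, 20 were higher and 8 lower, with a median log2 difference of 0.78 against 1.80 for Syt1, where 36.6% of all genes were higher and 36.9% lower. With exon counts for RNA, 17 partners were higher and 12 lower, with a median of 0.28, where 36.1% and 38.3% of all genes were. In that fit 3 of the 5 other synaptotagmins were higher and 2 lower, and of 9 relatives 2 were higher and 3 lower. After AZD-8055, edgeR called 0 of the 5 other synaptotagmins in TE (0 with an unadjusted p under 0.05) and 0 of 8 relatives (1 with such a p). It called 1 of 31 partners (2 with such a p), where 0.865% of all genes were called. That partner was Bsn, the active zone scaffold bassoon (0.48, adjusted p = 0.0268 in edgeR), named after its value was seen.

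In the IP the partners were split as well. On CDS counts 10 of 31 were higher and 16 lower, with a median of −0.46, where 36.5% of all genes were higher and 39.0% lower. On exon counts 15 were higher and 12 lower, with a median of 0.24, where 33.7% and 35.7% of all genes were, so neither split stood far from the background. The 10 members had medians of −0.35 on the CDS and 0.37 on exons, against medians of −0.067 and −0.034 for all genes. Of the 5 other synaptotagmins tested, 2 were higher and 2 lower on the CDS, against the same background, and Syt10 (−2.40) and Syt14 (−2.17) fell furthest, as they did on exons (−3.01 and −2.62).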

How the data were processed

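The deposited values are whole-number read counts per gene, which the authors did not normalize, for CDS (12 libraries) and for exons (the 8 libraries of RNA-Seq). For footprints the authors cut the first 5 and the last 20 bases, clipped poly(A), dropped reads under 15 bases, removed rRNA reads with Bowtie2, aligned to mm10 (per the submitters' notes) with TopHat2 and counted with HTSeq in strict intersection mode. Tool versions are not given in the sources used here. Strand and annotation were not stated.

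Tests were run in edgeR 4.0.16 (R 4.3.3) with TMM factors (0.856 to 1.16), the quasi-likelihood F-test, two-sided, and Benjamini-Hochberg adjustment over every gene whose mean count reached 37 in the libraries fitted, at a threshold of 0.05. SEs were taken from the F statistic and intervals are at 95%. The study's RiboDiff was replaced by an interaction term. TE and IP ratios per mouse used DESeq2 1.42.0 size factors, and TE ratios needed at least 75 summed counts. The tests were run on simulated counts, in which 200 genes had a known log2 change of 1.5 in size. That is larger than any member's change after AZD-8055, so it does not tell how often such small changes would be called. Outside-CDS counts below 0 (1.80% of values, none of them in the 10 genes) were set to 0. Mouse letters pair libraries of the same animal, and differences between mice correlated across genes at 0.255 (A and B), 0.239 (C and D) and 0.462 (E and F).

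All 10 members were tested on CDS counts in every comparison, and for the AZD-8055 changes not each member is named. The 5 genes most like Syt1 and the 5 most like Syt2 are named. The members, lists and tests were chosen with earlier results of these data known. The alternatives were DESeq2, other scalings, no filter on low counts, each mouse left out, the mouse as a block, exon counts and, for TE ratios, a pseudocount of 1. Wilson intervals of CDS shares cover counting error only, while the edgeR intervals include the spread between mice. Protein sequences were not used here.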

Additional observations from a re-analysis of the deposited data

How the results depend on the processing

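Count alternatives left the number of called members at 8 or 9 for vehicle TE, at 8 or 9 for the IP on CDS counts, and at 0 for RNA and TE after AZD-8055. Exon counts for the IP gave 6 called members, 8 with the mouse as a block, and outside-CDS counts gave 7. With the replicate block on CDS counts the called members numbered 8 for vehicle TE, 0 for the TE change and 9 for the IP, and there the block changed no call of a member. Leaving out each mouse in turn gave 0 to 1 called members for the footprint change, the 1 being Syt3 without mouse C. For vehicle TE and the IP, leaving out a mouse left no residual degrees of freedom, so those values have no test. When a group was left with 1 mouse in the other fits, that mouse was assumed to vary like the rest.

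In vehicle TE, Syt5 was called lower under library totals (−0.25), which moved the median gene by −0.14, and without a filter (−0.23). With exon counts for RNA, Syt5 (0.42), Syt6 (−0.56), Syt11 (−0.023), Syt13 (−0.70) and Syt17 (0.18) changed sign. That fit counted other RNA reads, and its scaling factors and the genes passing the filter were set anew. Lengths do not cancel in it, so its zero does not mean the same for each gene. In the IP, the fall of Syt1 on the CDS was absent on exon counts (0.0024, and 0.0045 with the block). Syt4 turned from called lower to called higher on exons (0.47, with and without the block) and outside the CDS (0.38). Syt11, not called on the CDS, was called higher on exons (0.55, with and without the block) and outside the CDS (0.33). The cause of these was not tested. Depth limits Syt2, with 28 and 52 IP counts on its CDS, and Syt17, whose 22 to 35 counts outside its CDS fell under the filter of the IP test there.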
